A study of Danio rerio with 6 samples.

Results

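Rab GTPases and the SNARE proteins they work with carry membrane vesicles between the compartments of a cell, and 122 of the 59330 rows in the count tables belonged to them. The members were the Ensembl genes whose symbol begins with rab, vamp or stx and a number, with stxbp, with snap23, snap29 or snap47, or with vti1. They comprised 67 Rab GTPases, 12 proteins named for binding or regulating a Rab, 33 SNAREs and 10 syntaxin-binding proteins, spread over all 25 chromosomes. The 122 rows carried 121 symbols, because stx10 stood in the tables under 2 identifiers. The rule goes by symbol and identifier alone.

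Polyadenylated RNA had been sequenced from GFP-positive cells of zebrafish embryos carrying Tg(mpx:eGFP), a transgene in which the promoter of the neutrophil myeloperoxidase gene mpx drives green fluorescent protein. The 6 libraries were 3 from embryos given a morpholino against znf711, labelled as a znf711 knockdown, and 3 from wild-type control embryos, all on day 2 (48 hours post-fertilisation) and all labelled as biological replicates. A morpholino is an antisense oligonucleotide that blocks translation or splicing of its target. The design text of the series names a homozygous znf711 mutant where the labels name a morpholino, and groups were taken from the labels. The treatment of control embryos, the number of embryos behind a library and any pooling of cells are not stated in the labels. The study asked what the zinc finger protein Znf711 does in neutrophil development.

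A Rab is a molecular switch: bound to GTP it sits on a membrane and recruits tethers and motors, and bound to GDP it is held in the cytosol. SNAREs on the vesicle and on the target membrane then zip together and fuse the membranes, with Sec1/Munc18 proteins guiding the syntaxins. In neutrophils this machinery releases granules to the outside and to the phagosome. In humans, loss of RAB27A, STX11 or STXBP2 impairs the secretory granules of immune cells and causes inherited immune disease.

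Library totals were 1629804, 12093109 and 9550796 counts in morpholino replicates 1 to 3, and 7181804, 9311439 and 7635673 in control replicates 1 to 3. Morpholino replicate 1 stood apart from the other 5 libraries on the first principal component, which held 54.8% of the variance. Levels are given in CPM after the trimmed-mean (TMM) scaling of edgeR, which puts libraries of different depth on the same footing. The znf711 transcript was at 0.537, 11.2 and 17.7 CPM in morpholino replicates 1 to 3 and at 41.1, 16.5 and 9.79 CPM in the 3 controls, so the groups overlapped. A morpholino that blocks translation need not lower its target's RNA, so these levels check the labels only in part. For mpx the levels were 559, 2731 and 5068 CPM in morpholino replicates 1 to 3 and 520, 2926 and 2703 CPM in control replicates 1 to 3, so replicate 1 was the lowest of each group. The 13 rows of neutrophil markers summed to 2798, 13697 and 22209 CPM in morpholino libraries and 1844, 13943 and 16097 CPM in control libraries, and 10 to 12 of them had counts in each library. Among them lyz was at or near 0 in every library, with 0, 8 and 2 counts in morpholino libraries and 1, 1 and 4 in control libraries. Summed erythroid markers were between 2733 and 21014 CPM in morpholino libraries and between 4879 and 15818 CPM in control libraries, so erythroid RNA was present in every library. The 13 connective tissue markers summed to 637, 779 and 738 CPM in morpholino libraries and 1476, 1366 and 1207 CPM in control libraries, and all 13 had a negative fold change although none passed the test. The part of these other cell types in the values below was not tested.

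The members together took 0.261%, 0.353% and 0.532% of all counts in morpholino replicates 1 to 3, against 0.339%, 0.293% and 0.304% in control replicates 1 to 3. At least 1 count was found for 53, 95 and 89 of the 122 members in the morpholino libraries and for 92, 89 and 80 in the control libraries. Of the 122, 18 had no count anywhere, 104 had counts in some library, and 84 had enough counts to be tested. None of the 84 passed the test between morpholino and control after adjustment over all 16637 rows (edgeR), where 0% of rows were called higher and 0% lower, so the fold changes given for single members describe these libraries. In bulk samples of this kind, fewer cells of a type and less RNA per cell cannot be told apart. The plot of levels by library shows the tested members side by side.

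**Figure D1:**
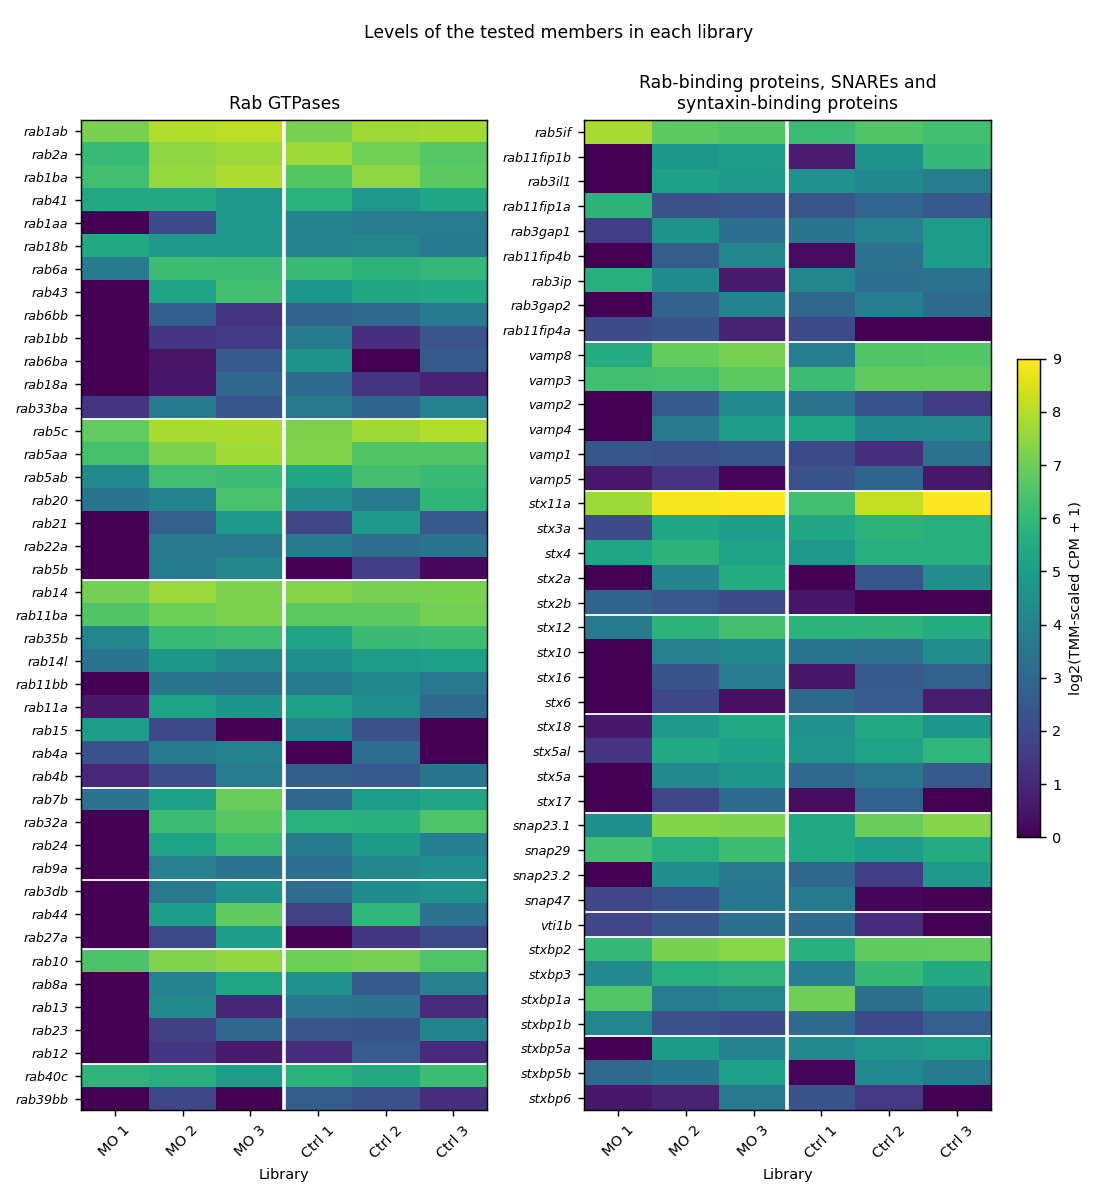
Level of 83 of the 84 tested members as log2(TMM-scaled CPM + 1), coloured from 0 to 9, with 1 column per library (MO, znf711 morpholino; Ctrl, control) and white lines between role classes; members run down the page by class and then by level per kilobase. Morpholino replicate 1 holds 0 counts for 35 of them, while stx11a, rab1ab, rab5c and rab14 are bright in every column.

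To compare genes with each other, levels were divided by gene length, giving CPM per kilobase. The most abundant member by this measure was stx11a (ENSDARG00000044039, GRCz11 chr17:7727464-7733037, minus strand), a syntaxin of the plasma membrane. Per kilobase it reached 135, 308 and 435 CPM in morpholino replicates 1 to 3 and 50.8, 190.2 and 387 CPM in control replicates 1 to 3, with a mean of 251 CPM over the 6 libraries. It had rank 1 among all members in 4 libraries, rank 2 in morpholino replicate 1 and rank 8 in control replicate 1. After it came rab1ab, which carries vesicles from the endoplasmic reticulum to the Golgi, with a mean of 115 CPM per kilobase, and rab10, a Rab of transport to the plasma membrane, with 102 CPM per kilobase. The range of stx11a over the libraries, from 50.8 to 435 CPM per kilobase, covered the whole range of rab1ab, from 78.3 to 153, so their order was not the same everywhere.

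The next 9 places, from 75.9 down to 46.6 CPM per kilobase, went to rab5c, rab5if, rab14, rab11ba, rab2a, rab1ba, rab5aa, rab5ab and vamp8. Their ranges over the libraries overlapped, and neighbours in this order did not differ beyond their spread. Rab1, Rab2, Rab5, Rab10, Rab11 and Rab14 serve the Golgi, early endosomes and recycling endosomes of nearly every cell. Only 3 of these 12 members stood outside the Rab GTPases: stx11a, vamp8 and rab5if. The 12 together held between 53.6% and 65.6% of the members' summed level per kilobase in any library, and the first 20 held between 64.3% and 78.5%.

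Among the Rabs of the endoplasmic reticulum and Golgi, all 15 had counts and 13 were tested. Their most abundant gene, rab1ab (chr13:24402406-24411961, plus strand), had 147, 247 and 276 CPM in morpholino replicates 1 to 3, against 142, 209.5 and 222 CPM in control replicates 1 to 3. The groups overlapped, and the log2 fold change of morpholino over control was 0.23 ± 0.46 (approximate SE, n = 3 each, edgeR). Its relatives rab1ba and rab2a were at 168 ± 82.7 and 149 ± 73.6 CPM in morpholino libraries and at 128 ± 44.3 and 146 ± 51.8 CPM in control libraries (SD, n = 3 each). Levels in this class reached down to rab33a, which had 1 count in morpholino replicate 3, 14 in control replicate 1 and none elsewhere. Among its lesser members, rab18b, a Rab of the endoplasmic reticulum and of lipid droplets, stood out by its grouping. It had 42.4, 28.3 and 27.2 CPM in morpholino libraries and 14.8, 16.7 and 12.1 CPM in control libraries, so every morpholino value lay above every control value. The log2 fold change was 1.164 ± 0.91, and it did not pass the test. The Golgi Rab pair rab6ba and rab6bb had lower means in the morpholino group, at 1.74 ± 2.70 and 2.36 ± 2.79 CPM in morpholino libraries and 9.79 ± 12.9 and 8.75 ± 3.11 CPM in control libraries. The morpholino values of rab6bb, 0, 5.44 and 1.65 CPM, all lay below its control values of 6.26, 7.75 and 12.2 CPM. In rab6ba the control mean rested on control replicate 1, which had 24.5 CPM, while control replicate 2 had no count. The gene rab6ba overlaps cep63 on the same strand and an unnamed gene on the opposite strand, so its counts are uncertain. The class median of the log2 fold change was -0.25, with 5 positive and 8 negative values.

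Early endosomes and phagosomes are the compartments of the Rab5 family, whose GTP-bound form lets endosomes fuse with each other. All 7 Rabs of this class were tested. The most abundant, rab5c (chr3:17615599-17651899, plus strand), had 113, 233 and 229 CPM in morpholino replicates 1 to 3 and 149, 211 and 246 CPM in control replicates 1 to 3, with a log2 fold change of -0.08 ± 0.47. Its paralogues rab5aa and rab5ab had 149 ± 67.3 and 55.7 ± 32.0 CPM in morpholino libraries, against 114 ± 37.1 and 64.1 ± 20.2 CPM in control libraries. The fourth paralogue, rab5b, was the rarest of the class and had the largest fold change in it. It had 0, 11.7 and 15.9 CPM in morpholino libraries and 0, 2.21 and 0.163 CPM in control libraries, from 0, 125 and 164 counts against 0, 18 and 1. Its log2 fold change of 3.52 ± 2.25 did not pass the test, and the groups overlapped at 0. The gene rab20, linked in mammals to the maturation of phagosomes in macrophages, varied within the groups more than between them. Its level was 10.2, 15.2 and 84.7 CPM in morpholino libraries and 20.7, 11.6 and 57.8 CPM in control libraries, highest in replicate 3 of each group. Reads of rab20 may include some of naxd, which overlaps it on the opposite strand, since the use of strand is not given. The class median was -0.03, with 3 positive and 4 negative values.

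Rab11, Rab14, Rab35 and Rab4 return receptors to the cell surface. In this class 11 of 12 members had counts and 9 were tested. The most abundant were rab14 and rab11ba, with similar levels in both groups. Expression of rab14 (chr5:63390315-63399894, plus strand) stood at 139, 200.03 and 147 CPM in morpholino replicates 1 to 3 and 164, 139.9 and 145 CPM in control replicates 1 to 3. Expression of rab11ba was 123 ± 28.1 CPM in morpholino libraries and 117 ± 17.1 CPM in control libraries. Their log2 fold changes were 0.12 ± 0.45 and 0.08 ± 0.47. The copy rab11bb had 0, 10.2 and 9.22 CPM in morpholino libraries and 12.4, 17.6 and 11.1 CPM in control libraries, and its groups did not overlap. The log2 fold change of rab11bb was -1.06 ± 1.56, a standard error larger than the value itself. For rab11a the levels were 0.537, 36.2 and 24.1 CPM in morpholino libraries and 33.4, 21.3 and 7.51 CPM in control libraries, with a log2 fold change of -0.02 ± 1.20. The epithelial Rab rab25a was at the bottom of the class, with 3 counts in morpholino replicate 2 and 5 in control replicate 1. Next above it, rab11al had 1 and 2 counts in morpholino replicates 2 and 3 and 43 in control replicate 1, with none in the other libraries.

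The Rabs of late endosomes, lysosomes and related organelles included 9 members, of which 3 had no count and 4 were tested. Rab7 directs late endosomes to lysosomes, and rab7a, its main form in mammals, was listed at 0 in every library, so the class was led by rab7b (chr8:50968990-50981175, minus strand). In human cells RAB7B acts between late endosomes and the trans-Golgi. For rab7b the levels were 9.66, 34.6 and 122 CPM in morpholino replicates 1 to 3 and 7.33, 29.4 and 38.8 CPM in control replicates 1 to 3. Morpholino replicate 3 lay above all the others, and the remaining 5 values were interleaved. The log2 fold change was 1.14 ± 0.89, and an unnamed gene overlaps it on the opposite strand. For rab32a, a Rab of lysosome-related organelles such as pigment granules, the levels were 0, 71.2 and 104 CPM in morpholino libraries and 52.7, 51.4 and 89.9 CPM in control libraries. The value of 0 came from morpholino replicate 1, where 3 counts would have been 1.61 CPM. Among the others, rab24, linked to autophagy, had 36.5 ± 36.5 CPM in morpholino libraries and 18.1 ± 9.36 CPM in control libraries, and rab9a, which recycles receptors from late endosomes to the Golgi, had 7.89 ± 7.16 and 15.7 ± 6.35 CPM. Lowest in the class was rab9b, with 3 counts in morpholino replicate 2 and none elsewhere. The melanosome Rab rab38b had 10 counts in morpholino replicate 2 and 63 in control replicate 1.

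Of the 9 Rabs of regulated secretion, 5 had counts and 3 were tested. In mammals Rab27a docks secretory granules at the plasma membrane, Rab3d lies on granules of exocrine and immune cells, and Rab44 acts in granule release from mast cells. The most abundant per kilobase was rab3db (chr3:14512670-14537576, plus strand), at 0, 11.4 and 22.6 CPM in morpholino replicates 1 to 3 and 8.39, 19.7 and 23.17 CPM in control replicates 1 to 3. In rab44 (chr6:41057943-41079209, minus strand) the levels were 0, 31.4 and 109 CPM in morpholino libraries and 2.36, 59.0 and 9.79 CPM in control libraries. In rab44 the highest and the lowest value both belonged to the morpholino group, and the log2 fold change was 0.99 ± 1.60. The gene rab44 overlaps entpd8 on the opposite strand, so its counts are uncertain. For rab27a (chr18:2228737-2266585, plus strand) the levels were 0, 2.999 and 31.7 CPM in morpholino libraries and 0, 1.72 and 2.94 CPM in control libraries. The raw counts of rab27a were 0, 32 and 327 in morpholino libraries and 0, 14 and 18 in control libraries, so its group mean of 11.6 ± 17.5 CPM rested on replicate 3 of that group. With a log2 fold change of 2.90 ± 2.11, it did not pass the test. The other copy, rab27b, had 1 count in all 6 libraries together. No row was named rab37, and rab3da, rab3aa, rab3ab and rab3c had no count. Morpholino replicate 3 was also the library with the highest mpx and the highest sum of macrophage markers. Summed macrophage markers were at 455, 1885 and 2274 CPM in morpholino libraries and 477, 913 and 2112 CPM in control libraries. The part of the share of neutrophils or macrophages in these values was not tested.

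The Rabs of polarised transport and the cilium were led by rab10 (chr20:47434709-47471595, plus strand), which had 144 ± 50.2 CPM in morpholino libraries and 121 ± 27.4 CPM in control libraries and a log2 fold change of 0.26 ± 0.49. The related exocytic Rabs rab8a and rab13 were at 17.7 ± 19.3 and 6.63 ± 10.7 CPM in morpholino libraries and at 13.7 ± 8.65 and 7.17 ± 5.23 CPM in control libraries. The gene rab13 overlaps the ribosomal protein gene rps27.2 on the opposite strand, so its counts are uncertain. Lowest of the tested Rabs of this class was rab12, with 0, 1.78 and 0.582 CPM in morpholino libraries and 1.18, 5.04 and 1.14 CPM in control libraries. Outside these classes, rab40c, a Rab that joins ubiquitin ligases, had 45.9 ± 12.5 CPM in morpholino libraries and 57.1 ± 15.3 CPM in control libraries. Its companion rab42a had 107 counts in morpholino replicate 1, 4 in control replicate 2 and none elsewhere. A pattern resting on control replicate 1 was seen in rab39ba, which had 4 counts in morpholino replicate 3, 264 and 60 counts in control replicates 1 and 2, and none in the other 3 libraries.

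Proteins named for binding or regulating Rabs were led by rab5if (chr23:2906031-2913472, plus strand), named for its binding of Rab5 and known in human cells as a protein of the endoplasmic reticulum membrane. It had 226, 107 and 93.9 CPM in the morpholino libraries, against 70.8, 93.1 and 76.4 CPM in the control libraries. All 3 morpholino values lay above all 3 control values, but morpholino replicate 3 and control replicate 2 were only just apart. The log2 fold change was 0.83 ± 0.51, the second smallest unadjusted p among the members at 0.125, and it did not pass the test. Without morpholino replicate 1, the highest library, the log2 fold change of rab5if was 0.32. The Rab11 effector rab11fip1a had 55.3, 3.66 and 4.27 CPM in morpholino libraries and 4.25, 6.64 and 4.57 CPM in control libraries, so its log2 fold change of 2.01 ± 1.45 rested on the value of 55.3 CPM. Its duplicate rab11fip1b gave the reverse picture in that library, with 0, 26.2 and 32.1 CPM in morpholino libraries and 0.591, 22.9 and 62.8 CPM in control libraries. Of the activating and exchange factors, rab3gap1 and rab3gap2, which form the activator of Rab3 and an exchange factor of Rab18, had 11.4 ± 10.8 and 7.21 ± 7.82 CPM in morpholino libraries and 18.3 ± 10.3 and 9.32 ± 3.43 CPM in control libraries. The gene rab3gap2 overlaps iars2 on the opposite strand, so its counts are uncertain. The Rab8 exchange factor rab3ip had 48.8, 19.3 and 0.582 CPM in morpholino libraries and 16.7, 8.73 and 9.63 CPM in control libraries. The lowest per kilobase of those with counts was rab11fip3, with 23 counts in morpholino replicate 2 and 3 in control replicate 3.

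SNAREs bring vesicle and plasma membrane together at the point of release, and in each SNARE family of this step few genes made up most of the level. Among the 7 plasma membrane syntaxins with counts, stx11a made up 83.5%, 87.4% and 89.8% of the summed level per kilobase in morpholino replicates 1 to 3, and 56.5%, 83.3% and 89.8% in control replicates 1 to 3. It was the leading syntaxin of this family in all 6 libraries, and the lowest share was in control replicate 1. Its level in CPM was 207, 470.1 and 663 in morpholino libraries and 77.5, 290.2 and 591 in control libraries. The groups overlapped, and the log2 fold change was 0.48 ± 0.64. That value was 0.014 without control replicate 1 and 1.27 without control replicate 3. Replicate 1 was the lowest library of each group in stx11a, as it was in vamp8 and stxbp2.

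The remaining syntaxins of the plasma membrane were scarcer. Expression of stx3a (chr14:21699129-21751346, plus strand), a syntaxin of apical membranes in epithelia, was 3.22, 39.9 and 32.2 CPM in morpholino libraries and 41.1, 54.8 and 48.5 CPM in control libraries. All its morpholino values lay below all its control values, although 39.9 and 41.1 CPM nearly met, and the log2 fold change was -0.93 ± 0.84. The broadly expressed stx4 had 43.3 ± 10.7 CPM in morpholino libraries and 41.6 ± 12.7 CPM in control libraries. Its log2 fold change was 0.06 ± 0.67, and it overlaps calcoco2 on the same strand, so its counts are uncertain. A rare syntaxin, stx2b (chr8:44211374-44224198, minus strand), had the smallest unadjusted p of any member, 0.0653. It had 12, 47 and 34 counts in morpholino libraries and 4, 0 and 0 counts in control libraries, or 6.44, 4.41 and 3.30 CPM against 0.473, 0 and 0 CPM. It passed the filter on low counts through the morpholino libraries alone, so its p and its grouping only describe these libraries. The log2 fold change of 4.72 ± 2.40 rests, on the control side, on the 4 counts in control replicate 1. The other 2 of the 3 control libraries held no read, where 3 counts would have been 0.369 and 0.490 CPM. Its more abundant copy stx2a had 0, 15.3 and 46.1 CPM in morpholino libraries and 0, 4.30 and 20.7 CPM in control libraries. At the bottom of the family, stx11b.1 had 21 counts in morpholino replicate 2, 4 in control replicate 1 and 26 in control replicate 2, and its neighbour stx11b.2, 966 bases away, had none.

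On the vesicle side, vamp8 (chr5:28271412-28279364, plus strand), the VAMP of endosomes and of granules in mammalian blood cells, was the most abundant of 6. It held 52.5%, 66.3% and 56.4% of the family's summed level per kilobase in morpholino replicates 1 to 3 and 14.5%, 54.4% and 56.7% in control replicates 1 to 3. Its level was 46.2, 117 and 143 CPM in morpholino libraries and 13.6, 92.3 and 97.6 CPM in control libraries. In control replicate 1 it stood below vamp3, vamp4 and vamp2 per kilobase. Expression of vamp3, a VAMP of recycling endosomes, was 78.9, 81.6 and 108 CPM in morpholino libraries and 70.8, 111 and 110.5 CPM in control libraries, with a log2 fold change of -0.12 ± 0.50. The trans-Golgi VAMP vamp4 had 13.7 ± 15.2 CPM in morpholino libraries and 24.4 ± 11.5 CPM in control libraries. The lowest per kilobase was vamp5, known from mammalian muscle, with 0.742 ± 0.769 CPM in morpholino libraries and 3.59 ± 2.96 CPM in control libraries. No row was named vamp7.

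The third SNARE of a fusion complex at the plasma membrane comes from the SNAP25 family, of which snap23.1 is a form used outside neurons. It had 21.5, 161 and 152 CPM in morpholino replicates 1 to 3 and 43.7, 122 and 164 CPM in control replicates 1 to 3. The group means differed by far less than the spread within each, with a log2 fold change of 0.03 ± 0.68. The tandem copy snap23.2, which begins 469 bases beyond it on the same strand, had 0, 20.2 and 11.4 CPM in morpholino libraries and 7.09, 2.21 and 28.4 CPM in control libraries. A relative that acts with syntaxin 17 in fusing autophagosomes with lysosomes, snap29 (chr8:1839695-1856656, plus strand), had 78.9, 50.4 and 72.1 CPM in morpholino libraries and 43.7, 31.0 and 45.04 CPM in control libraries. All morpholino values of snap29 lay above all control values, and the log2 fold change was 0.75 ± 0.61, which did not pass the test. Its partner stx17 was rare, at 3.56 ± 3.98 CPM in morpholino libraries and 2.09 ± 3.41 CPM in control libraries. The lowest per kilobase of this family was snap47, at 5.73 ± 4.32 CPM in morpholino libraries and 4.22 ± 7.20 CPM in control libraries.

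**Figure D2:**
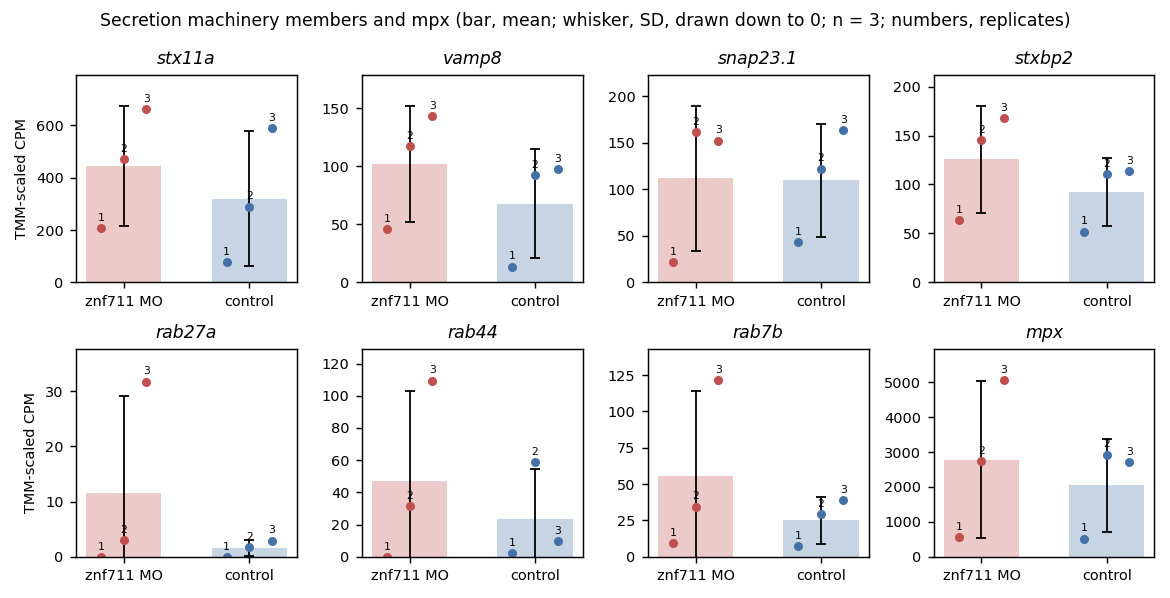
Levels in TMM-scaled CPM (linear axes from 0) of 7 members linked to secretion or lysosomes and of mpx; points are libraries marked with their replicate number, bars are means and whiskers are SD (n = 3 each), drawn down to 0. In every panel replicate 1 is the lowest library of its group, and the groups overlap.

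Munc18 proteins hold syntaxins ready for fusion, and stxbp2 (chr3:53240562-53274285, plus strand), the partner of syntaxin 11 in mammalian immune cells, was the most abundant of the 4. It had 63.3, 146 and 168 CPM in morpholino replicates 1 to 3 and 52.0, 111 and 114 CPM in control replicates 1 to 3, with a log2 fold change of 0.45 ± 0.54. The broadly used stxbp3 had 41.9 ± 20.8 CPM in morpholino libraries and 40.1 ± 25.5 CPM in control libraries. In the libraries numbered 1, however, the leading Munc18 was stxbp1a, the form of neurons. It made up 43.4%, 4.48% and 5.04% of the family's level per kilobase in morpholino replicates 1 to 3, and 57.8%, 3.59% and 7.32% in control replicates 1 to 3. Among other syntaxin-binding proteins, the tomosyn genes stxbp5a and stxbp5b, which restrain fusion, had 14.7 ± 14.5 and 16.9 ± 14.2 CPM in morpholino libraries and 24.4 ± 6.49 and 10.1 ± 9.14 CPM in control libraries. A further tomosyn, stxbp5l, had 77 counts in control replicate 1 and none in the other 5 libraries.

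**Figure D3:**
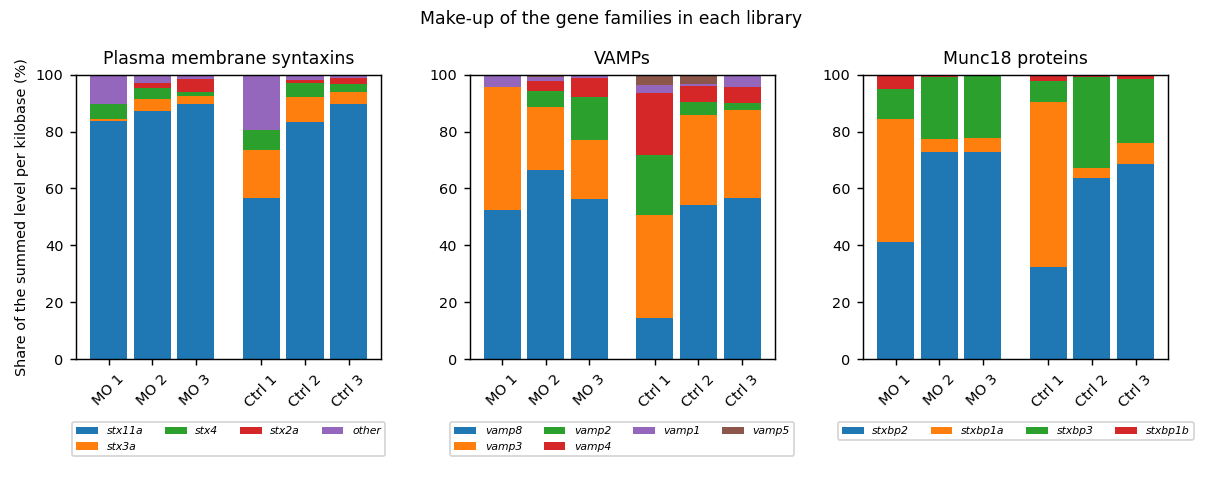
Share (%) of each gene in the summed TMM-scaled CPM per kilobase of its family, with 1 stacked bar per library (MO, znf711 morpholino; Ctrl, control) and the remaining plasma membrane syntaxins joined as other. The genes stx11a, vamp8 and stxbp2 fill most of their bars in replicates 2 and 3 of both groups, while stxbp1a takes 43.4% and 57.8% of the Munc18 level in morpholino and control replicate 1.

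The neuronal Munc18 gene was high where neural marker genes were high. Expression of stxbp1a (chr21:13861589-13921022, plus strand) stood at 96.1, 12.8 and 16.7 CPM in morpholino replicates 1 to 3 and 133, 8.98 and 17.5 CPM in control replicates 1 to 3. It was highest in replicate 1 of each group, and the groups overlapped. The 16 neural markers summed to 1392, 472 and 339 CPM in morpholino libraries and 1515, 238 and 475 CPM in control libraries, with counts for 12, 16 and 15 of the 16 in morpholino libraries and for 16, 15 and 15 in control libraries. The neuronal Rab rab3b had 6 counts in morpholino replicate 1, 109 in control replicate 1, 2 in control replicate 2 and none elsewhere. The synaptic VAMP gene vamp1 had 4.29, 3.66 and 4.37 CPM in morpholino libraries and 3.07, 1.35 and 9.14 CPM in control libraries. For vamp2 the levels were 0, 4.78 and 18.9 CPM in morpholino libraries and 9.69, 3.81 and 1.96 CPM in control libraries. Neither VAMP was highest in replicate 1 of both groups. Second neuronal copies were scarce, and stx1a had no count. The copy stxbp1b had 16.6, 3.75 and 3.20 CPM in morpholino libraries and 7.92, 3.07 and 5.71 CPM in control libraries. It too was highest in replicate 1 of each group. The part of neural RNA in the level of stxbp1a was not tested.

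Syntaxins inside the cell were at moderate levels. The recycling endosome syntaxin stx12 had 12.3, 55.6 and 80.6 CPM in morpholino replicates 1 to 3 and 55.8, 55.3 and 45.04 CPM in control replicates 1 to 3. In the endoplasmic reticulum, stx18 had 23.8 ± 21.3 CPM in morpholino libraries and 30.8 ± 11.7 CPM in control libraries. The Golgi syntaxins stx5al and stx5a had 26.5 ± 22.1 and 14.9 ± 13.4 CPM in morpholino libraries, against 39.7 ± 17.7 and 7.54 ± 2.86 CPM in control libraries. These 4 genes had their lowest morpholino value in replicate 1, and in none of them were the groups apart. Of the trans-Golgi syntaxins, stx6 had 0, 2.91 and 0.291 CPM in morpholino libraries and 7.09, 5.04 and 0.653 CPM in control libraries. The late endosome syntaxin stx8 had counts in the morpholino group alone, 51, 0 and 25, and none in the control libraries. The reverse held for stx12l, which had no count in the morpholino libraries and 80, 5 and 9 counts in the control libraries. Neither passed the filter on low counts of the edgeR fit. With that filter left out, edgeR gave them unadjusted p of 0.0040 for stx8 and 0.039 for stx12l, both with an adjusted p of 0.454. In that fit 4 of 104 members were under 0.05, rab42a and rab39ba being the others, against 1.94% of all rows. Both stx8 and stx12l were named here because their counts lay in a single group, so these values only describe these libraries. The gene stx7l had no count. The Vti1 SNAREs, partners of these syntaxins, were rare: vti1b had 5.31 ± 3.24 CPM in morpholino libraries and 3.01 ± 4.19 CPM in control libraries, and vti1a had 16 counts in morpholino replicate 3 and 26 in control replicate 2.

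Set across all genes, the comparison of morpholino with control called no member. The edgeR quasi-likelihood test with Benjamini-Hochberg adjustment over 16637 rows called 0 rows higher and 0 lower, a background of 0% each way, and the lowest adjusted p of any row was 0.9999. At an unadjusted p under 0.05 it found 174 rows, 1.05% of those tested, with 0.583% higher and 0.463% lower, and 0 of the 84 members. DESeq2 called 9 rows higher and 3 lower at an adjusted p under 0.05, which were 0.0633% and 0.0211% of the 14212 rows to which it gave an adjusted p. None of the 12 was a member, and limma-voom called no row. The common biological coefficient of variation, a single value fitted over all rows tested, was 1.09. Genes differed in this, and rab14 varied less, at 162 ± 33.1 CPM in morpholino libraries and 150 ± 12.5 CPM in control libraries (SD, n = 3 each).

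The members' log2 fold changes had a median of -0.03, with quartiles at -0.44 and 0.64, and 41 were positive and 43 negative. Over all rows tested the median was -0.12, with quartiles at -0.75 and 0.46, and 44.3% were positive. Relative to that overall shift, the members' median was 0.09 higher, a description to which no test was applied. By family, the medians were -0.09 for the 43 tested Rab GTPases, 0.25 for 9 Rab-binding proteins, 0.03 for 25 SNAREs and 0.45 for 7 syntaxin-binding proteins. The spread of the fold changes followed the level. In the 42 members of higher level, log2 fold changes ran from -0.93 to 1.164 with a median standard error of 0.70, and in the 42 of lower level from -2.43 to 4.72 with a median standard error of 1.82.

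**Figure D4:**
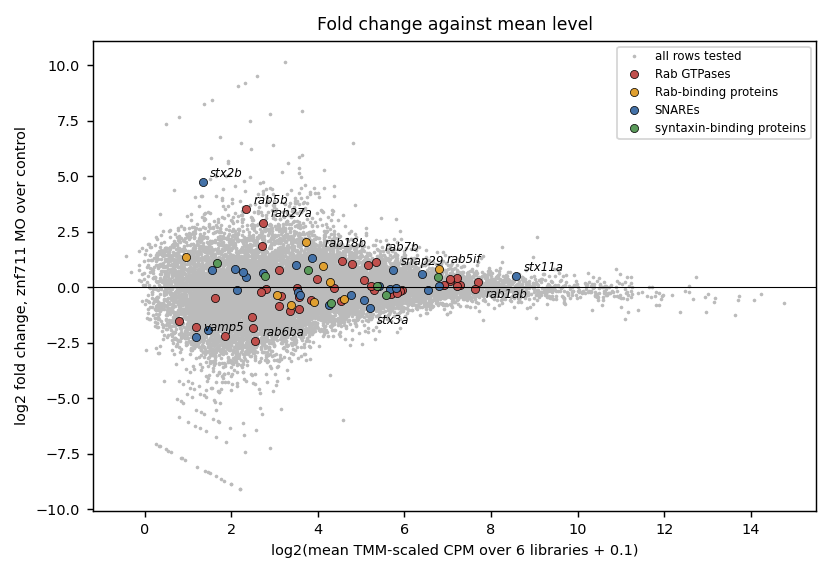
Log2 fold change of znf711 morpholino over control against log2(mean TMM-scaled CPM over the 6 libraries + 0.1); grey points are all 16637 rows tested and coloured points the 84 members by family. The members lie within the cloud of all rows, and the wide values, such as stx2b at 4.72 and rab6ba at -2.43, sit at low levels.

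The 12 members of smallest unadjusted p were stx2b, rab5if, rab5b, rab11fip1a, rab27a, rab7b, rab18b, snap29, rab6ba, stx3a, rab1bb and vamp5, with p between 0.0653 and 0.308 (edgeR). In the last pair, rab1bb had 0, 1.69 and 1.94 CPM in morpholino libraries and 11.9, 1.35 and 4.24 CPM in control libraries, and the fold changes of rab1bb and vamp5 were -2.20 ± 2.03 and -2.23 ± 2.12 on the log2 scale. Groups that did not overlap were found for 4 tested members with the morpholino values above (stx2b, rab5if, rab18b and snap29), or 4.76% of the 84, against 2.09% of all rows. With the morpholino values below there were 3 (stx3a, rab6bb and rab11bb), or 3.57%, against 5.35% of all rows. In rab6bb and rab11bb the morpholino replicate 1 value was a count of 0. The gene stx2b passed the filter on low counts through the morpholino libraries alone.

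Morpholino replicate 1 was the shallowest library. It had 0 counts for 35 of the 84 tested members, or 41.7%, against 42.5% of all rows tested. For 21 members, or 25% of the tested, it held 0 counts although each of the other 5 libraries lay above 1.61 CPM, the level of 3 counts there. Over all rows that share was 15.6%. Among these 21 were rab32a, rab43, rab44, rab24 and rab3db, and the level of rab43, a Golgi Rab, was 0, 36.0 and 77.5 CPM in morpholino libraries and 25.4, 40.7 and 44.5 CPM in control libraries. Morpholino replicate 3 lay at the other end. It was the highest library for 32 of the 84 members, or 38.1%, against 19.3% of all rows.

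Leaving out morpholino replicate 1 moved the members' median log2 fold change to 0.21, against -0.03 for all rows, and still no member passed the adjusted threshold. An unadjusted p under 0.05 was then reached by 6 of the 90 members tested, or 6.67%, where 3.16% of the 20797 rows tested reached it. The 6 were rab7b, rab27a, rab39ba, rab5b, rab24 and stx12l. With 2 morpholino libraries left, 4 of the 6 had a positive log2 fold change: 1.63 ± 0.68 for rab7b, 3.48 ± 1.60 for rab27a, 4.09 ± 1.84 for rab5b and 1.58 ± 0.63 for rab24. The other 2 were negative, -5.99 ± 2.33 for rab39ba and -8.10 ± 3.77 for stx12l. Neither was tested in the fit of all libraries. Here both passed the filter on low counts through control libraries alone, so their values only describe these libraries. Since stx12l had no count in a morpholino library, its fitted value depends on the prior count. Leaving out morpholino replicate 3 moved the members' median to -0.35, against -0.37 for all rows.

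Many members stand as pairs of copies. Most are named as duplicates, as the genome duplication of bony fishes left them, while the snap23 and the stx11b copies are neighbours on a chromosome. Of 20 pairs, 14 had at least 20 counts in 4 or more libraries. In 9 of these the same copy was the higher in every such library. That was fixed in advance for rab32a with rab32b and rab3da with rab3db, where a copy had no count in any library. For stx2a with stx2b, morpholino and control replicate 1 fell below 20 counts and were left out, and there stx2b held 100%. By mean level per kilobase, rab1ab made up 89.6% of the pair with rab1aa and rab1ba 96.6% of the pair with rab1bb. By the same measure rab11ba made up 87.8% of the pair with rab11bb and rab18b 91.2% of the pair with rab18a. The pair rab5aa and rab5ab was near even by mean level, of which rab5aa held 51.3%. Its share in single libraries ranged from 35.5% to 67.8%. The pair of rab11fip1 genes switched between libraries: rab11fip1a held 100%, 5.53% and 5.29% in morpholino replicates 1 to 3 and 75.2%, 10.9% and 2.97% in control replicates 1 to 3. In 5 pairs a copy had no count in any library, among them rab32b and rab3da, and in 1 pair, rab3aa and rab3ab, neither copy had any. Reads that match both copies may have been split or lost in counting, so shares between near-identical copies are uncertain.

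**Figure D5:**
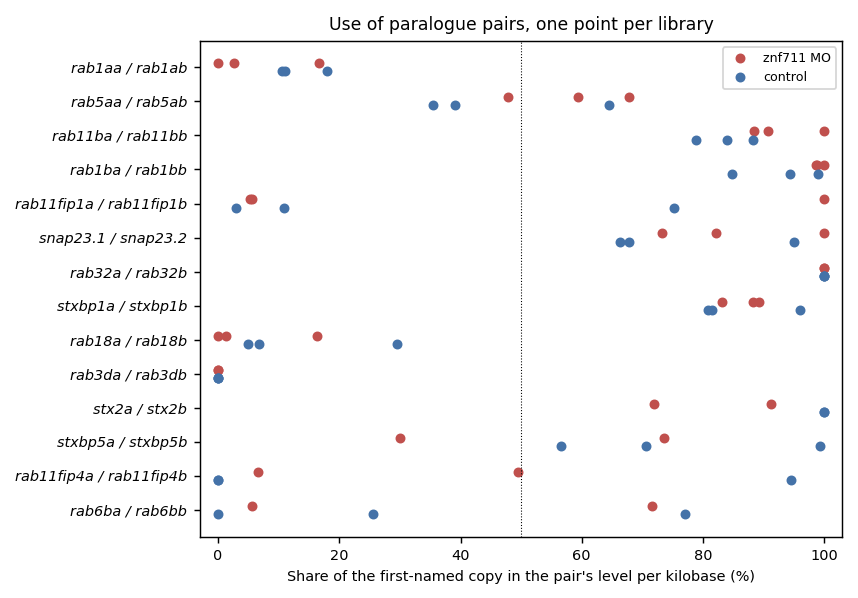
Share (%) of the first-named copy in the summed CPM per kilobase of each of 14 pairs, with 1 point per library holding at least 20 counts of the pair (red, znf711 morpholino; blue, control; the dotted line marks equal shares). In 9 pairs all points lie on the same side of the line. The pairs of rab5aa, rab11fip1a, stxbp5a, rab11fip4a and rab6ba with their copies straddle it.

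The 18 members without a count were rab3aa, rab3ab, rab3c, rab3da, rab7a, rab8b, rab11fip5a, rab25b, rab32b, rab38c, rab40b, rab42b, stx1a, stx7l, stx11b.2, stxbp4, stxbp6l and the second row of stx10. For some of them the reads may have been given to another model of the same gene, since the tables also hold unnamed models on alternate scaffolds. A search chosen after the values were seen took models whose ends lay within 5000 bases of a member and whose length was within 10% of it. It found a model for rab8b (chr7:29301497-29310861), with ends 17 and 40 bases away, which had 1, 173 and 383 counts in morpholino replicates 1 to 3 and 17, 98 and 146 counts in control replicates 1 to 3. Rab8 guides vesicles to the cell surface and the cilium, and the 0 in the row of rab8b need not mean that it was not expressed. A model was also found for vamp8, a looser match with ends 2282 and 2574 bases away. It had 1, 1032 and 1000 counts in morpholino libraries and 158, 704 and 695 in control libraries. The counts of vamp8 itself were 86, 1250 and 1473 in morpholino libraries and 115, 751 and 598 in control libraries. If that model is the same gene, the level of vamp8 given above may cover only some of its reads. No such model was found for rab7a.

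Partners of these proteins outside the name rule showed no call either, with 0 of their members past the adjusted threshold in each list. The 10 tested genes listed as SNAREs with other names had a median log2 fold change of -0.57, with 2 positive and 8 negative. The list holds snap25a and snap25b, which are also among the neural markers. In that list sec22a, a gene of the Sec22 family, had 11.8, 17.2 and 17.0 CPM in morpholino libraries. It had 27.9, 23.9 and 24.3 CPM in control libraries, without overlap. The median was 0.36 for 5 genes of NSF and its adaptors, which take spent SNARE complexes apart. It was -0.04 for 7 genes of HOPS and CORVET, tethers of endosomes and lysosomes. Medians were 0.07 for 9 genes of the exocyst, -0.06 for 13 exchange factors, -0.01 for 23 GTPase activators and -0.01 for 14 effectors. The 3 other tested Sec1/Munc18 genes had a median of 0.44, and 6 genes of Rab prenylation and recycling had a median of 0.53. Among the last, rabggta, a subunit of the enzyme that adds the lipid anchor to Rabs, had 45.6, 32.7 and 25.8 CPM in morpholino libraries and 17.96, 24.1 and 9.30 CPM in control libraries, without overlap. The GDP dissociation inhibitor gdi2, which extracts Rabs from membranes, had 277 ± 68.2 CPM in morpholino libraries and 314 ± 93.6 CPM in control libraries. The Rab27 effector and granule priming factor unc13d had 159 ± 89.1 CPM in morpholino libraries and 149.6 ± 65.3 CPM in control libraries. Groups also lay apart for the GTPase activators sgsm3 and tbc1d7, higher in morpholino libraries, and tbck, lower in morpholino libraries, and none of these passed the test. Of the 90 tested partners, 3 lay above without overlap, or 3.33%, against 2.09% of all rows, and 2 lay below, or 2.22%, against 5.35% of all rows.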

How the data were processed

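RNA was measured in 3 znf711 morpholino and 3 control libraries, grouped by their titles. Each deposited table holds raw counts per gene and FPKM values, per the file headers. Tools named in the submitters' processing notes are Trimmomatic, HTSeq, HISAT2 2.0.5, edgeR and DESeq2 1.16.1, with GRCz11 as the build. The annotation release, strand setting and handling of multi-mapping reads are not stated there, so counts of overlapping genes and near-identical copies are uncertain.

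Deposited counts were tested with edgeR 4.0.16 (R 4.3.3): filterByExpr with a minimum count of 10, TMM scaling, a robust quasi-likelihood fit with the group as the only term, and Benjamini-Hochberg adjustment over all rows at 0.05. Standard errors of log2 fold changes are the absolute value divided by the square root of F. For levels per kilobase the length came from the authors' deposited FPKM values (count over FPKM and library total), because the listed length was longer for 63 of the 104 counted members. A count of 0 allows up to 3 counts, or between 0.281 and 1.61 TMM-scaled CPM by library, for counting error only. Whether replicate numbers pair the libraries is not stated in the labels, and a replicate block was run as an alternative. Of the 122 identifiers, 121 were in the reference name table, and 87 of these had the same symbol there apart from case. Symbols, classes and the name rule follow the deposited names. The code was tested on simulated data.

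Alternatives were DESeq2 1.42.0, limma-voom 3.58.1, other scalings and filters, a replicate block, Ensembl rows alone, and leaving out libraries. The members, the partner and marker lists and the rule for named genes were chosen with earlier results of these data known. The rule took a set of degranulation and neuronal genes, the 12 members of smallest p, the 12 of highest level per kilobase, the highest and lowest of each role class, and duplicate pairs. Other named genes were chosen after their values were seen. A member that the rule takes is not reported here.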

Additional observations from a re-analysis of the deposited data

How the results depend on the processing

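No member passed the adjusted threshold under any alternative. Members at an unadjusted p under 0.05 numbered 1 with DESeq2 (stx2b), 2 with limma-voom (stx2b and rab4a), 4 without a filter on low counts and 4 without both libraries numbered 1, against 0 in the edgeR fit. Among all rows the share at that p was 2.46%, 2.19%, 1.94% and 3.10% in these 4 settings and 1.05% in the edgeR fit. With all libraries kept, stx2b passed the filter on low counts through the morpholino libraries alone. Leaving out each library in turn gave 1 to 6 members, with 6 without morpholino replicate 1, where the shares of all rows were 1.79% to 3.16%. Among these, rab39ba, rab4a, stx2b, stx8 and stx12l passed the filter on low counts there through a single group. Without both libraries numbered 1, snap47 and stx2b did too. The members' median log2 fold change was -0.03, and it was 0.026 with DESeq2, -0.0074 with limma-voom, 0.026 with RLE scaling, -0.066 with upper quartile scaling, 0.071 with library totals, -0.074 without a filter, 0.18 without both libraries numbered 1, and -0.35 (without morpholino replicate 3) to 0.21 (without morpholino replicate 1) with each library left out. Groups that did not overlap numbered 7, 6 and 6 members with RLE, upper quartile and total scaling, an alternative added after seeing the data. The share of all rows without overlap was not computed under these scalings, so these counts have no background beside them. The median of all rows was -0.12 with TMM, -0.09 with RLE, -0.15 with upper quartile and -0.02 with totals. It was -0.09 with DESeq2, -0.15 with limma-voom, -0.15 without a filter and 0.019 without both libraries numbered 1. Without morpholino replicate 3 it was -0.37, and without morpholino replicate 1 it was -0.03.

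Same-numbered libraries correlated at 0.135, 0.112 and 0.0139 in their deviations from the group means. Differently numbered libraries correlated between -0.136 and 0.0746, so these values do not settle whether the numbers pair the samples. With the replicate block 0 members were called and the members' median was -0.15, against -0.30 for all rows. With that block, signs turned for rab20 (-0.0026), rab2a (-0.031), rab44 (-0.11), snap23.1 (-0.23), vamp1 (0.28) and vamp2 (-0.044). Signs also turned for rab2a with upper quartile scaling (-0.0045), snap23.1 with Ensembl rows alone (-0.0048), rab5c (0.062), vamp1 (0.080) and vamp3 (0.054) with totals, and rab5ab (0.079), rab5c (0.036), stxbp1b (-0.15), vamp1 (0.31) and vamp2 (-0.048) with limma-voom. Without both libraries numbered 1 they turned for rab11a (1.06), rab11fip1a (-0.50), rab32a (0.31), rab5c (0.011), rab6ba (0.10), snap23.2 (0.051), stx4 (-0.10), stxbp1a (0.16) and stxbp1b (-0.33). The cause of these changes was not tested.

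With each library left out in turn, the log2 fold change ran from -0.72 to 0.52 for rab11a, -0.078 to 0.23 for rab11ba, -0.39 to 2.48 for rab11fip1a, -0.14 to 0.20 for rab14, -1.23 to 1.20 for rab20, -0.24 to 0.37 for rab2a, -0.83 to 0.43 for rab32a, -0.57 to 2.97 for rab44, -0.53 to 0.20 for rab5ab, -0.29 to 0.18 for rab5c, -0.17 to 1.63 for rab7b, -0.36 to 0.51 for snap23.1, -1.10 to 1.22 for snap23.2, -0.25 to 0.18 for stx4, -1.87 to 1.63 for stxbp1a, -0.69 to 0.85 for stxbp1b, -0.36 to 0.57 for stxbp3, -0.61 to 0.85 for vamp1 and -1.03 to 1.45 for vamp2. It stayed positive from 0.014 to 1.27 for stx11a, 0.10 to 0.94 for vamp8, 0.15 to 0.76 for stxbp2 and 0.32 to 1.05 for rab5if. It also stayed positive for rab10, rab18b, rab1ab, rab1ba, rab27a, rab5aa, rab5b, snap29, stx2b and vti1b. Negative throughout were rab11bb, rab1bb, rab3db, rab6ba, stx3a, stx6, vamp3 and vamp5. The range was -1.43 to -0.42 for stx3a and -0.32 to -0.046 for vamp3. Depth limits members of low level, and 3 counts in morpholino replicate 1 were already 1.61 CPM.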
